A study of Mus musculus with 10 samples.

Results

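The glucocorticoid receptor and 9 genes that serve it or answer to it were followed in CD4+ splenocytes early in abdominal sepsis. The genes are the receptor Nr3c1, the hormone-regenerating enzyme Hsd11b1, the receptor co-chaperones Fkbp5 and Fkbp4, and the induced genes Tsc22d3, Sgk1, Ddit4, Zbtb16, Mt1 and Mt2. They were taken by symbol from the array annotation, keeping probe sets with exactly 1 gene symbol, which gave 25 probe sets out of 34945 with 1 symbol. Of these, 21 were bright enough to be tested, and each of the 10 genes kept at least 1. RNA came from the CD4+ spleen cells of C57Bl/6 mice 8 to 12 weeks old, from 5 mice after cecal ligation and puncture (CLP) and 5 after sham laparotomy. All mice had halothane anaesthesia and an opened abdomen, and spleens were taken 6 h after surgery. CLP spills gut contents into the abdomen and is widely used to model sepsis from mixed bacteria. Cells were enriched by magnetic removal of other cells to about 91% CD4+ per the series text, so a minority of other spleen cells contributed RNA, and each mouse had its own Affymetrix array. The genes were read together as a readout of stress hormone, which rises after surgery as well as in sepsis. The labels give no hormone level.

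The glucocorticoid receptor is a transcription factor that waits in the cytoplasm in a complex with Hsp90 and immunophilin co-chaperones. FKBP51, made from Fkbp5, lowers its affinity for hormone, and FKBP52, made from Fkbp4, favours hormone binding and entry into the nucleus. Once bound by corticosterone, the main glucocorticoid of mice, the receptor induces genes such as Fkbp5 itself, which closes a negative feedback loop, and Tsc22d3, whose product GILZ restrains NF-kB and AP-1. In T cells glucocorticoids restrain cytokine output and can trigger death.

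Signals are given as log2 of the deposited intensity after scaling all arrays to 1 median, with a floor at 6.14. Differences are CLP minus sham on the log2 scale, with limma's moderated standard error (SE), and p-values were adjusted over all 27022 probe sets tested (Benjamini-Hochberg, threshold 0.05). In that test 45 probe sets rose in CLP mice (0.167%) and 145 fell (0.537%). These counts moved with single arrays, from 0 that rose and 4 that fell without sham replicate 3 to 123 and 384 without CLP replicate 1. The arrays also fell into 2 classes that cut across the groups. The control probe set for 18S ribosomal RNA read 194.3 to 268.4 on CLP replicates 2 and 4 and sham replicates 2 and 4, and 3134 to 5178 on the other 6 arrays. The ratio of 3 prime to 5 prime signal for Gapdh, a measure of how far the labelled copies were shortened, was 9.45 to 13.4 in the low class and 20.7 to 29.5 in the high class. The same ratio for actin did not separate the classes, at 7.40 to 10.8 in the low class and 6.25 to 11.7 in the high class. With this class blocked in the fit, 175 probe sets rose (0.648%) and 543 fell (2.01%), and values with that block or within a class are given where they bear on a gene.

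Hsd11b1 fell and no other of the 10 genes passed the threshold in the limma fit without the block. Of the 21 tested probe sets 0 rose and 1 fell. At an unadjusted p under 0.05, 7 were higher in CLP mice and 1 lower, where 3.45% of all tested probe sets were higher and 7.48% lower at that level. All 5 CLP arrays lay above all 5 sham arrays in 2 probe sets, both of Tsc22d3, and below them in 1, that of Hsd11b1, against 0.862% and 2.11% of all tested probe sets. Blocked by 18S class, 2 rose, the bright probe set of Fkbp5 and 1 of Tsc22d3, and Hsd11b1 again fell. The median difference over the 21 was 0.17, against 0.005 over all tested probe sets.

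**Figure D1:**
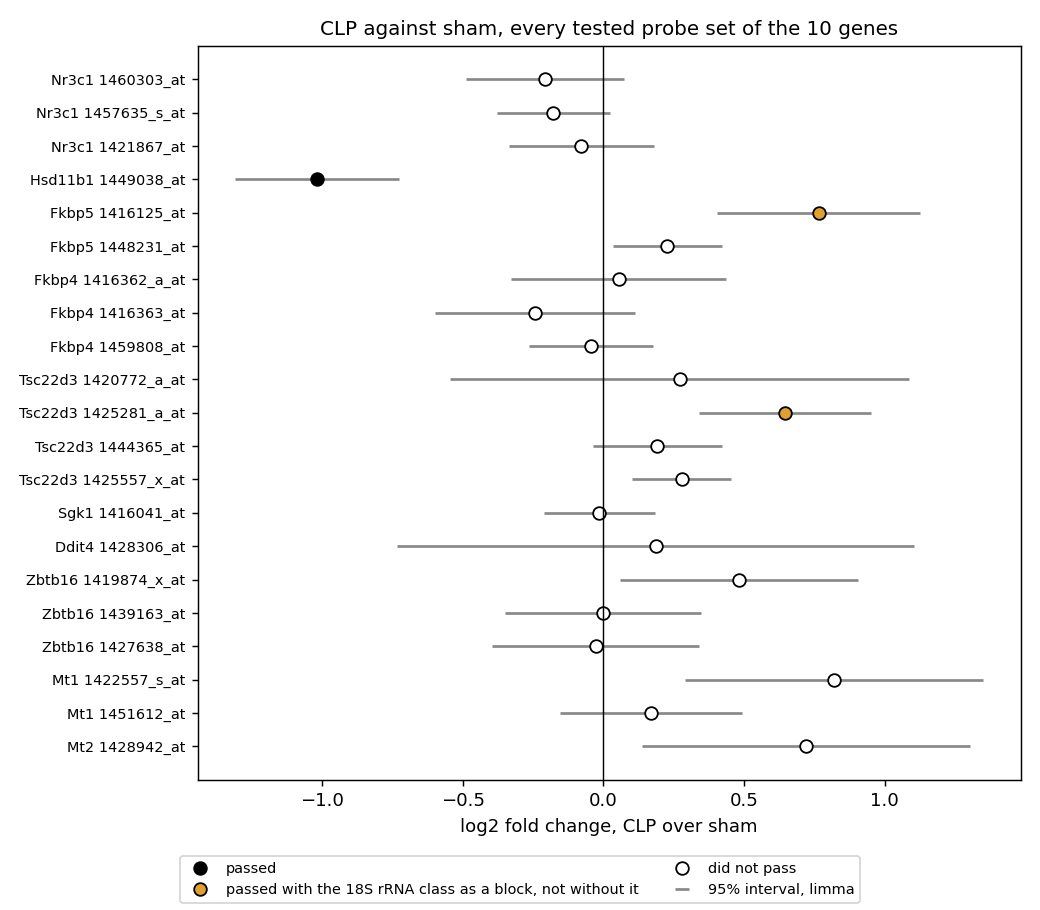
Log2 fold change of CLP over sham (x axis) for each of the 21 tested probe sets (y axis), with limma's 95% interval as a grey line and the fill showing which passed an adjusted p of 0.05. Hsd11b1 alone is filled black, at -1.02, and 1 probe set each of Fkbp5 and Tsc22d3 is filled orange, at 0.76 and 0.65.

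The receptor itself was slightly lower on average, with the groups overlapping and the threshold not passed in all 3 tested probe sets. Its brightest probe set, Nr3c1 1460303_at, read 9.81, 10.12, 9.83, 9.47 and 9.94 in CLP replicates 1 to 5, against 9.85, 10.13, 10.25, 10.1 and 9.88 in sham replicates 1 to 5. The groups overlapped, and CLP replicate 4 was the lowest array. The difference was -0.21 ± 0.13 (SE, n = 5 mice per group, limma adjusted p = 0.663). The other tested probe sets gave -0.18 ± 0.09 for 1457635_s_at and -0.08 ± 0.12 for 1421867_at, with adjusted p = 0.549 and 0.925. All 3 means were therefore lower in CLP mice, and their 95% intervals reached from -0.49 at the lowest to 0.18 at the highest, so a larger fall than -0.49 lay outside all of them. Another 3 Nr3c1 probe sets were too dim to test, between 6.14 and 7 on every array, and 1453860_s_at lay at the floor on 8 of 10.

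Hsd11b1 encodes the enzyme that turns inert 11-dehydrocorticosterone back into corticosterone inside the cell, so it sets the local supply of hormone. Its single probe set, 1449038_at, read 10.41, 9.71, 10.14, 10.21 and 10.12 in CLP replicates 1 to 5, against 11.16, 10.94, 11.37, 11 and 11.21 in sham replicates 1 to 5. Every CLP array lay below every sham array. The mean was 10.12 ± 0.25 in CLP mice and 11.14 ± 0.17 in sham mice (SD, n = 5 each), a difference of -1.02 ± 0.13 (SE, limma adjusted p = 0.0163), which put the CLP signal at 0.494 of the sham signal. The difference was as large within each 18S class, at -1.02 in the high class (limma adjusted p = 0.0531) and -1.01 in the low class (adjusted p = 0.446). It passed in neither class alone, where 0 of all tested probe sets did. Blocked by class it was -1.02 (adjusted p = 0.00318). It did not pass with no filter on dim probe sets (adjusted p = 0.0647), nor without CLP replicate 5 (-1.02, adjusted p = 0.054) or sham replicate 3 (-0.96, adjusted p = 0.0729), and few probe sets of the whole array passed in those 3 settings. In bulk samples such as these, fewer cells of a type that make a transcript and less transcript per cell cannot be told apart.

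Markers of the cells in the samples were read beside that fall. All 7 measured CD4 T cell markers had a lower mean in CLP mice, where 51.3% of all tested probe sets had a higher mean. Cd4 lay at -0.12 ± 0.13, Cd3e at -0.12 ± 0.09 and Trat1, an adaptor of the T cell receptor, at -0.72 ± 0.16 (SE). None of the 7 passed by limma, and 3 were lower at an unadjusted p under 0.05, against 7.48% of all tested probe sets. Blocked by 18S class, 3 of the 7 fell, Trat1 (adjusted p = 0.0232), Cd5 (0.0326) and Cd3g (0.0426), where 2.01% of all tested probe sets fell. The summed intensity of the 7 was 12750 to 13840 in CLP mice and 14270 to 17700 in sham mice, without overlap. The NK and NKT list (6 of 8 genes in the table, 4 tested) summed to 2659 to 3074 in CLP mice and 3118 to 3893 in sham mice, with Ncr1 at the floor on all arrays, and Klrd1 fell when blocked by class (adjusted p = 0.0359). The list of monocytes and macrophages, cells that can express Hsd11b1, overlapped, at 3958 to 4831 in CLP mice and 3347 to 5055 in sham mice over 9 of its 10 genes. Of its 8 tested genes 0 passed by limma, and at an unadjusted p under 0.05 Cd14 was higher (0.72 ± 0.21, SE, adjusted p = 0.156) and Vcam1 lower (-1.20 ± 0.33, adjusted p = 0.134), while Csf1r, the brightest value in the sum, lay at 0.01 ± 0.17. The sums also overlapped for B cells (2991 to 5769 in CLP and 2998 to 4790 in sham mice, 7 of 8 genes), neutrophils (2847 to 14690 in CLP and 4156 to 11190 in sham mice, 8 of 10), dendritic cells (1919 to 2384 in CLP and 1687 to 2005 in sham mice, 7 of 8, Xcr1 at the floor on all arrays), erythroid cells (1586 to 5471 in CLP and 1240 to 2613 in sham mice, 5 of 8, Hba-a1 at the floor on all arrays), CD8 T cells (468.3 to 579.8 in CLP and 394.1 to 545.2 in sham mice, 2 of 2) and stroma and endothelium (813.7 to 958.7 in CLP and 786.7 to 895.0 in sham mice, 7 of 7, Pecam1 at the floor on all arrays). Platelet markers summed to 1415 to 1813 in CLP mice and 1813 to 1932 in sham mice (6 of 6), meeting at the edge. The neutrophil sum was highest in CLP replicate 1 and sham replicate 1. The part of any of these cells in the fall of Hsd11b1 was not tested.

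Fkbp5 averaged higher in CLP mice and passed the threshold in 4 of 21 other settings, among them the fit without sham replicate 5. Its bright probe set, 1416125_at, read 10.84, 10.84, 10.73, 10.73 and 10.68 in CLP replicates 1 to 5, against 9.89, 9.68, 9.87, 9.86 and 10.69 in sham replicates 1 to 5. The CLP mice were all alike (10.76 ± 0.07, SD, n = 5), while 4 sham mice lay well below them and sham replicate 5 lay among them (10 ± 0.40 over the 5). The difference was 0.76 ± 0.16 (SE, 1.70-fold, limma adjusted p = 0.063) over all arrays, and 0.94 ± 0.08 (adjusted p = 0.0119) without sham replicate 5. Blocked by 18S class it passed (adjusted p = 0.0322), with 0.60 within the high class and 1.02 within the low class. It also passed with quantile normalization (0.80, adjusted p = 0.0396) and without scaling (0.77, adjusted p = 0.0491). It did not pass with a replicate block (adjusted p = 0.0717) or with no filter on dim probe sets (adjusted p = 0.189). Nor did it pass without any single array other than sham replicate 5 (adjusted p = 0.0721 to 0.183).

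The dimmer Fkbp5 probe set, 1448231_at, gave the same direction with a smaller size, 0.23 ± 0.09 (adjusted p = 0.333), at 7.40 ± 0.13 in CLP mice and 7.17 ± 0.09 in sham mice (SD, n = 5 each). There again sham replicate 5, at 7.31, was the highest sham array. The third probe set, 1447736_at, lay at the floor on all 10 arrays and says nothing of the gene.

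Fkbp4, the co-chaperone that favours an active receptor, showed no difference beyond its spread. Its probe sets read 8.40 ± 0.36 in CLP and 8.35 ± 0.24 in sham mice for 1416362_a_at, and 7.58 ± 0.31 in CLP and 7.82 ± 0.25 in sham mice for 1416363_at (SD, n = 5 each). The third, 1459808_at, read 7.13 ± 0.10 in CLP and 7.17 ± 0.17 in sham mice. Their differences were 0.05 ± 0.17, -0.24 ± 0.16 and -0.04 ± 0.10 (SE), with adjusted p = 0.969, 0.708 and 0.952. The widest 95% intervals ran from -0.60 to 0.44, so changes in Fkbp4 of the size seen for Hsd11b1 lay outside them.

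**Figure D2:**
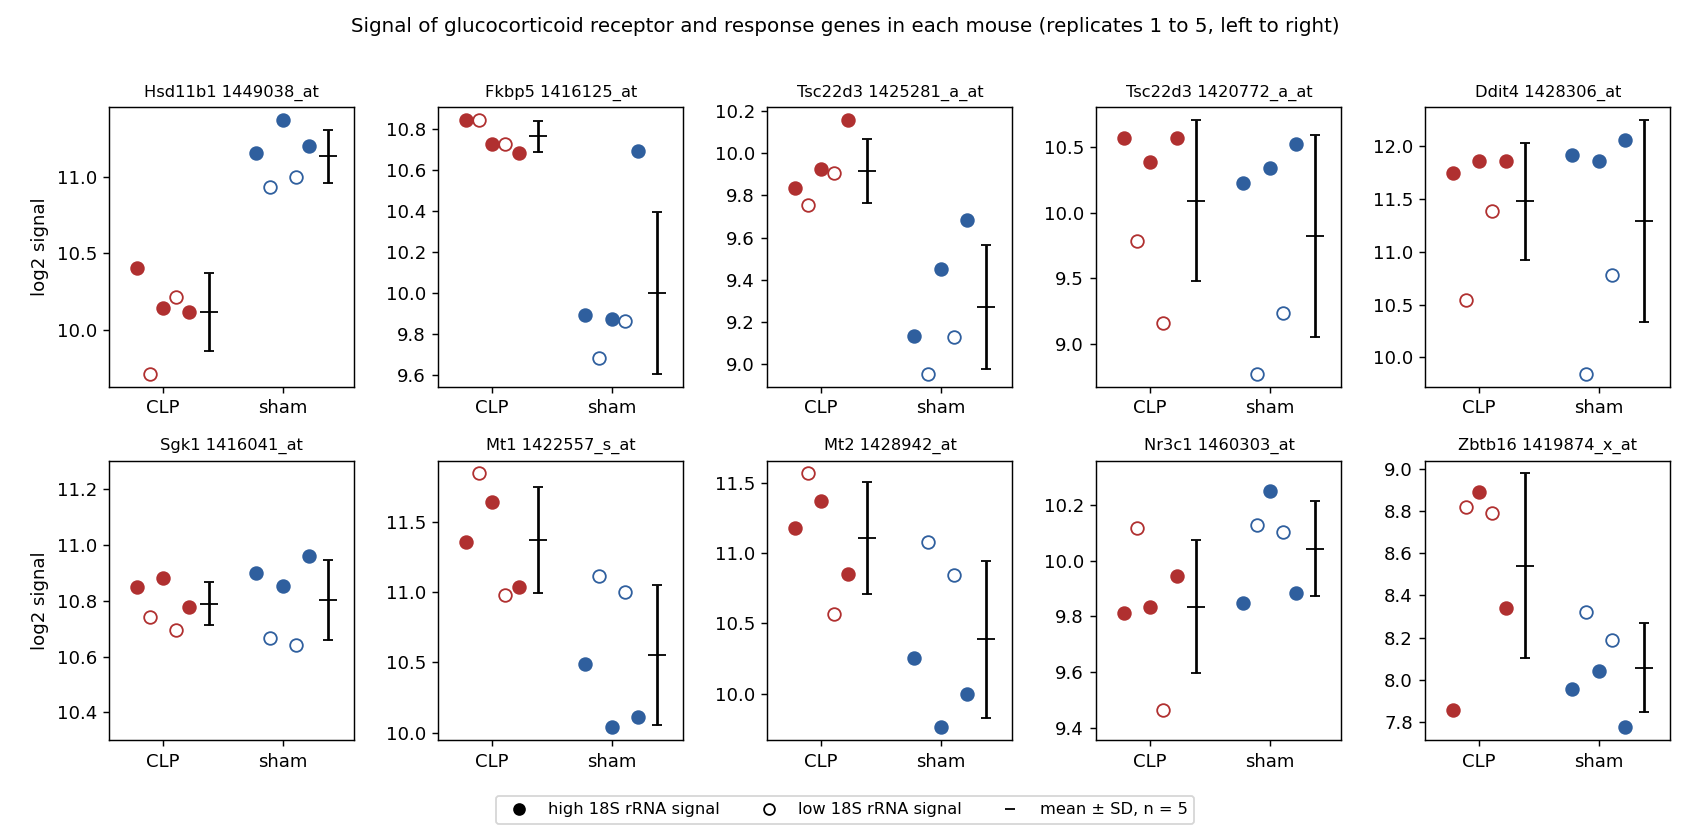
Log2 signal (y axis) of 10 probe sets in each CLP and sham mouse, with replicates 1 to 5 from left to right in each group, filled points for high and open points for low 18S rRNA signal, and the mean ± SD (n = 5) beside each group. Hsd11b1 separates the groups downwards and Tsc22d3 1425281_a_at upwards, sham replicate 5 sits among the CLP mice for Fkbp5, and Ddit4 and Tsc22d3 1420772_a_at split by 18S class rather than by surgery.

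Tsc22d3, among the most rapid glucocorticoid-induced genes of T cells, had 4 tested probe sets, each with a higher mean in CLP mice and none past the threshold without the block. The probe set 1425281_a_at read 9.84, 9.75, 9.93, 9.91 and 10.16 in CLP replicates 1 to 5, against 9.13, 8.95, 9.45, 9.13 and 9.69 in sham replicates 1 to 5. Every CLP mouse lay above every sham mouse, the gap being small between CLP replicate 2 and sham replicate 5. The difference was 0.65 ± 0.14 (SE, 1.57-fold, limma adjusted p = 0.0655), with 0.55 within the high and 0.79 within the low 18S class. It passed in 4 of 21 other settings. These were blocked by class (adjusted p = 0.0232), with a replicate block (adjusted p = 0.0375), with quantile normalization (0.69, adjusted p = 0.0373) and without sham replicate 5 (0.75, adjusted p = 0.0463). It did not pass with no filter on dim probe sets (adjusted p = 0.178). Nor did it pass without any single array other than sham replicate 5 (adjusted p = 0.0602 to 0.175).

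The dim probe set 1425557_x_at separated the groups as well, at 7.36 ± 0.06 in CLP and 7.08 ± 0.10 in sham mice (SD, n = 5 each), a difference of 0.28 ± 0.08 (SE, adjusted p = 0.153, and 0.0914 blocked by class). By the array maker's naming, the suffix x marks a set in which some probes may bind other transcripts, s one that may match several genes and a one that matches several transcripts of a gene. The probe set 1444365_at gave 0.19 ± 0.11 (adjusted p = 0.587). The brightest, 1420772_a_at, behaved unlike these. It read 10.57, 9.79, 10.38, 9.16 and 10.56 in CLP replicates 1 to 5, against 10.23, 8.78, 10.34, 9.24 and 10.52 in sham replicates 1 to 5. Its low values were those of the 4 arrays with low 18S signal, with a low minus high class difference of -1.19, and the difference by surgery was 0.27 ± 0.37 (adjusted p = 0.916), or 0.27 ± 0.14 blocked by class (adjusted p = 0.41). The tested probe sets of this gene thus all had a higher mean in CLP mice, by 0.19 to 0.65. Whether they differ in the surgical difference was not tested.

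Ddit4 (REDD1), a stress-induced brake on mTORC1, showed the same split by array class. Its probe set, 1428306_at, read 11.75, 10.54, 11.86, 11.39 and 11.86 in CLP replicates 1 to 5, against 11.92, 9.84, 11.86, 10.78 and 12.06 in sham replicates 1 to 5. The groups overlapped almost fully, and the low minus high class difference was -1.25. The difference by surgery was 0.19 ± 0.42 (SE, limma adjusted p = 0.952), with -0.125 within the high class and 0.65 within the low class, and it turned to -0.18 without sham replicate 2. Within the high class every CLP array lay below every sham array, by a narrow gap, with the nearest values of both groups at 11.86. Neither direction can be given for Ddit4 from these arrays.

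Sgk1, a kinase that regulates ion channels and is a classical early target of the receptor, was level between the groups with little spread. It read 10.85, 10.74, 10.88, 10.69 and 10.78 in CLP replicates 1 to 5, against 10.90, 10.66, 10.85, 10.64 and 10.96 in sham replicates 1 to 5. The difference was -0.01 ± 0.09 (SE, adjusted p = 0.985) with a 95% interval of -0.21 to 0.18. Sgk1 is shown by sequence because 1 of its 6 RefSeq start regions held the only exact palindrome of the receptor's half-site found among the members. Promoters of 8 of the 10 genes were in the RefSeq table (build GRCm38.p6), each 250 bases before to 50 after a start, and those of Nr3c1 and Zbtb16 were not used. They were searched on both strands for the loose full element GNACANNNTGTNC, which 0.475% of 32851 mouse promoters of that length hold, and for the half-site AGAACA, which 19.0% hold and which can overlap the full element. The Sgk1 region follows (chr10:21993640-21993939, plus strand, 5′ to 3′), with half-sites and the full element in capitals.
Sgk1: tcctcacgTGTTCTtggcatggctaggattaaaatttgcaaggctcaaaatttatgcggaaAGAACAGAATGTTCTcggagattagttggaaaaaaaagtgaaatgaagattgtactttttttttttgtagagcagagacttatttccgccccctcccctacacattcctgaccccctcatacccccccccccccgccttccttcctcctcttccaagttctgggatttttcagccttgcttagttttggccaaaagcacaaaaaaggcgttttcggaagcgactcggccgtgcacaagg
The full element starts 188 bases before the start and lies within a pair of half-sites. A match is a description of these letters, and Sgk1 signal did not differ between the groups beyond its spread.

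Zbtb16 encodes PLZF, a zinc finger factor that glucocorticoids induce in several tissues and that also marks innate-like T cells such as NKT cells. Its probe sets disagreed. The probe set 1419874_x_at read 7.86, 8.82, 8.89, 8.79 and 8.34 in CLP replicates 1 to 5, against 7.96, 8.32, 8.04, 8.19 and 7.77 in sham replicates 1 to 5, so that 4 CLP mice lay above every sham mouse and CLP replicate 1 among the lowest. The difference was 0.48 ± 0.19 (SE, limma adjusted p = 0.356), and without CLP replicate 1 it was 0.65 and still did not pass. The probe sets 1439163_at and 1427638_at gave 0.00 ± 0.16 and -0.03 ± 0.17 (adjusted p = 1.00 and 0.985). The NK and NKT markers given above were lower in CLP mice in sum, and their part in the Zbtb16 values was not tested.

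Mt1 and Mt2, the metallothioneins that bind zinc and copper and are induced by both glucocorticoids and metals, were higher on average in CLP mice and moved almost as one. Mt1 1422557_s_at read 11.36, 11.84, 11.64, 10.98 and 11.03 in CLP replicates 1 to 5, against 10.49, 11.12, 10.04, 11 and 10.11 in sham replicates 1 to 5. Mt2 1428942_at read 11.18, 11.57, 11.37, 10.56 and 10.85 in CLP replicates 1 to 5, against 10.26, 11.07, 9.76, 10.85 and 10 in sham replicates 1 to 5. In both genes sham replicates 2 and 4 were the high sham mice and reached the lower CLP mice, so the groups overlapped. The differences were 0.82 ± 0.24 for Mt1 (SE, 1.77-fold, limma adjusted p = 0.162) and 0.72 ± 0.27 for Mt2 (1.65-fold, adjusted p = 0.292).

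The overlap lay with the low 18S class. Within the high class Mt1 averaged 11.34 in CLP and 10.21 in sham mice, a difference of 1.13 (limma adjusted p = 0.0601). Mt2 averaged 11.13 in CLP and 10 in sham mice, also 1.13 (adjusted p = 0.058). There was no overlap over 3 mice against 3. In that class all CLP mice also lay above all sham mice for Fkbp5 1448231_at and Tsc22d3 1425281_a_at, 1444365_at and 1425557_x_at. They lay below all sham mice for Hsd11b1 1449038_at and Ddit4 1428306_at. How many of all tested probe sets separate so was not counted, and 0 of them passed in the high class alone. Within the low class Mt1 averaged 11.41 in CLP and 11.06 in sham mice and Mt2 11.07 in CLP and 10.96 in sham mice, differences of 0.35 and 0.10. That the classes differ in the response was not tested. Blocked by class, neither passed (adjusted p = 0.0609 for Mt1 and 0.141 for Mt2). The second Mt1 probe set, 1451612_at, was dim, at 7.93 ± 0.27 in CLP and 7.76 ± 0.23 in sham mice (SD, n = 5 each), and gave 0.17 ± 0.15 (SE, adjusted p = 0.814). Because of its suffix s, the bright Mt1 probe set may also bind related transcripts, so its values and those of Mt2 may not be independent.

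The start regions of both metallothionein genes are shown because these genes moved together over the mice. They were searched, besides the receptor's elements, for the metal response core TGCACNC, held by 12.6% of mouse promoters of this length, and its form TGCGCNC, held by 15.4%. Either core occurs in 25.7% of promoters, 3 or more in 1.97% and 4 or more in 0.517%. The full receptor element and the metal cores are in capitals, 5′ to 3′, for Mt1 (chr8:94178839-94179138, plus strand) and Mt2 (chr8:94172368-94172667, plus strand) in build GRCm38.p6.
Mt1: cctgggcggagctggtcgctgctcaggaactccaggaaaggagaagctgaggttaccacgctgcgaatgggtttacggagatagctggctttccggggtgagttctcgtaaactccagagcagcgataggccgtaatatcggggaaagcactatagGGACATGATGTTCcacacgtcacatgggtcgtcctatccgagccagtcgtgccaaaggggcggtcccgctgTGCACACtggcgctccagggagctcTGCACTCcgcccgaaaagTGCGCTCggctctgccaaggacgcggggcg
Mt2: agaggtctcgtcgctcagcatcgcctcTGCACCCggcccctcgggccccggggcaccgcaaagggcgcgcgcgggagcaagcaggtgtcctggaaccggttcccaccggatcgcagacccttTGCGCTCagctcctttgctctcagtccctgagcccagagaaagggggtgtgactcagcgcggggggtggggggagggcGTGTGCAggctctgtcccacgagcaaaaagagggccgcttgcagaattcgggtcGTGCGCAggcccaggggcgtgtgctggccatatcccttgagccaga
Mt1 held 1 loose full receptor element, 94 bases before the start, and 3 metal cores. Mt2 held 4 metal cores and no receptor element within these letters. The remaining member promoters, 1 of Hsd11b1, 1 of Fkbp5, 1 of Fkbp4, 3 of Tsc22d3, 5 more of Sgk1 and 1 of Ddit4, held no full element. Half-sites stood in 1 of the Tsc22d3 and 2 further Sgk1 regions.

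Agreement between arrays was read from the brightest tested probe set of each gene after the group means were subtracted, over 10 arrays, as a description. The 10 genes did not rise and fall as a single block: of 45 pairs 21 correlated positively, with a median r of -0.26. A set of 3 genes, Tsc22d3, Sgk1 and Ddit4, moved together with r between 0.82 and 0.89, and Mt1 and Mt2 with r = 0.98. These sets ran against each other, Ddit4 with Mt1 at -0.78. Fkbp5 went with the first set, at 0.62 with Sgk1 and 0.50 with Tsc22d3. Hsd11b1 correlated at 0.75 with Ddit4, 0.54 with Tsc22d3 and 0.53 with Sgk1. The arrays share their 18S class, and when the class means were subtracted as well the first set dissolved, at -0.05 for Tsc22d3 with Ddit4, 0.18 for Tsc22d3 with Sgk1 and -0.21 for Sgk1 with Ddit4. Hsd11b1 then changed sign with Tsc22d3 (-0.46) and Sgk1 (-0.30) and read 0.50 with Ddit4. Its values with Mt1 (-0.723 before and -0.670 after) and Mt2 (-0.695 before and -0.724 after) stayed negative. Within the first set, the opposition to the metallothioneins was kept by Ddit4, at -0.56 with Mt1. It changed sign for Sgk1 (0.58 with Mt1 and 0.64 with Mt2) and Tsc22d3 (0.28 with Mt1 and 0.35 with Mt2). The pair Mt1 and Mt2 stayed at 0.98, and Fkbp5 stayed at 0.66 with Sgk1 and 0.51 with Tsc22d3. In Fkbp5 sham replicate 5 lay furthest from its group mean, so that mouse weighs most in the values of r for Fkbp5.

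**Figure D3:**
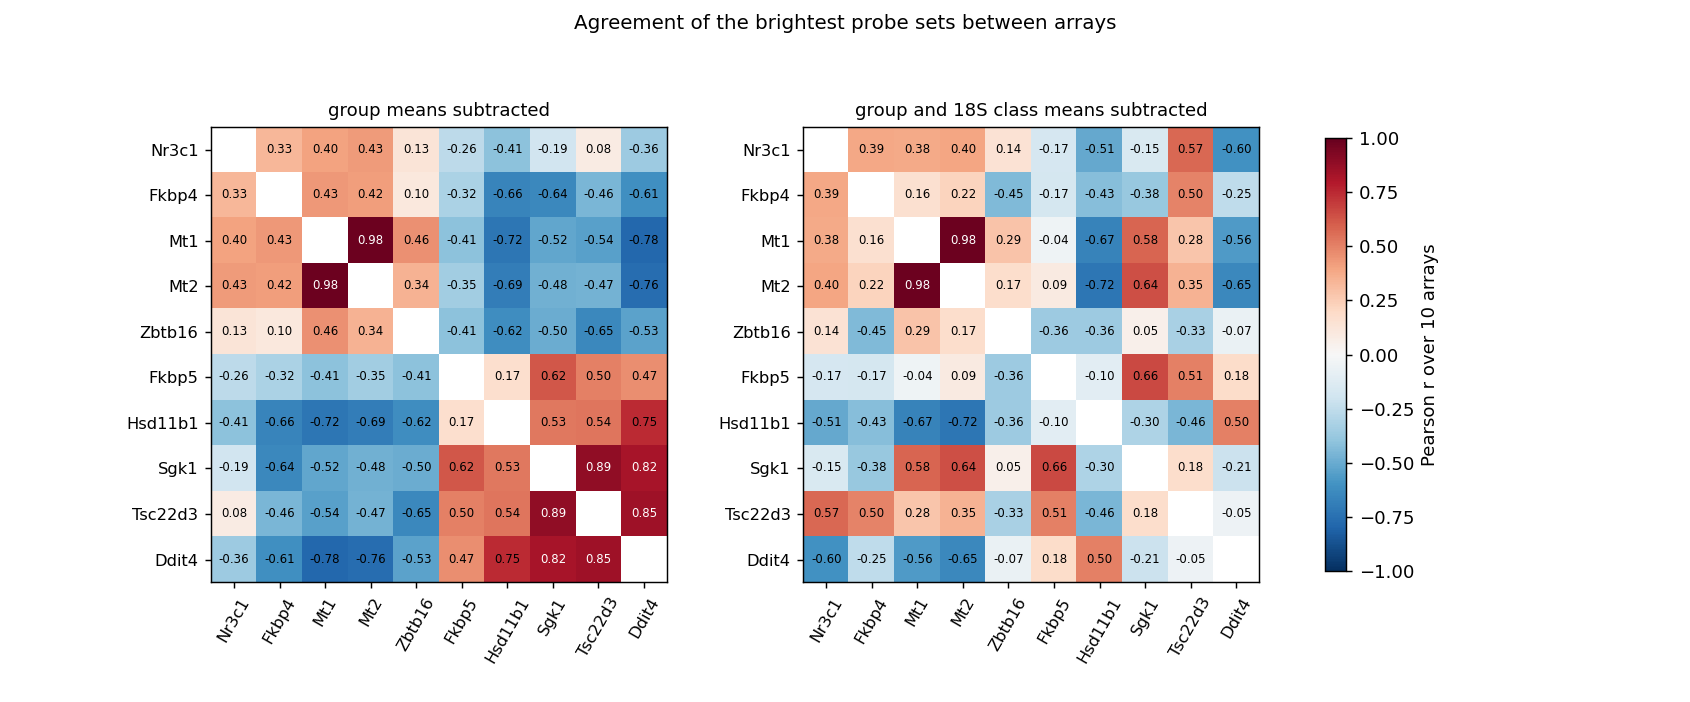
Pearson correlation (colour and printed value) between the brightest tested probe sets of the 10 genes over 10 arrays, with group means subtracted on the left and the means of each group and 18S class subtracted on the right. The block of Sgk1, Tsc22d3 (1420772_a_at) and Ddit4 on the left, 0.82 to 0.89, is absent on the right, while Mt1 with Mt2 reads 0.98 in both. On the right the low class arrays of each group deviate by equal and opposite amounts, so fewer than 10 values are independent.

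The highest and the lowest mouse of each group were counted over tested probe sets, several of which belong to the same gene. The same count over all tested probe sets was not made. Among sham mice, replicate 5 had the highest value in 7 of the 14 tested probe sets of the induced genes (Fkbp5, Tsc22d3, Sgk1, Ddit4, Zbtb16, Mt1 and Mt2): both of Fkbp5, 3 of Tsc22d3, Sgk1 and Ddit4. It was the lowest sham mouse in 2, Mt1 1451612_at and Zbtb16 1419874_x_at. Its array also had the highest 18S signal (5178), Gapdh ratio (29.5) and actin ratio (11.7) of the 10 arrays. The part of these in its values was not tested. Among CLP mice, replicate 4 was the highest in 0 and the lowest in 6 of the 14. The 5 probe sets of named genes whose deviations were most like those of Fkbp5 1416125_at over the 10 arrays belonged to Tbc1d22b (r = 0.98) and to Oasl1, an interferon-induced gene, Atxn2l, Wdr83 and Prkar1b (r = 0.95 each). None of them passed between the groups, with Oasl1 at 0.54 ± 0.11 (SE, limma adjusted p = 0.0605). These r weigh sham replicate 5 most, which read 10.69 for Fkbp5 where the other sham mice read 9.68 to 9.89 and the CLP SD was 0.07. For Nr3c1 1460303_at the most alike were Crbn (r = 0.98), Sec24d (0.96), Erlec1 (0.96), Parl (0.95) and Armcx2 (0.94), of which none passed. Both sets were picked as the highest r over all tested probe sets with a named gene, so high values were selected.

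Other genes of the pathway were described by list, each gene by its brightest tested probe set, where 0.199% of 13073 genes rose and 0.551% fell. Of 25 tested genes known as glucocorticoid-induced outside the 10, Klf9 and Dusp1 rose and 0 fell, with a median of 0.17 against 0.005 over all genes. At an unadjusted p under 0.05, 8 were higher and 1 lower, where 3.45% of all tested probe sets were higher and 7.48% lower. Klf9, a Krüppel-like repressor and direct target of the receptor, read 10.21 ± 0.27 in CLP and 9.18 ± 0.13 in sham mice (SD, n = 5 each), a difference of 1.03 ± 0.13 (SE, adjusted p = 0.0163). Dusp1, the MAP kinase phosphatase that carries part of the hormone's anti-inflammatory action, read 11.08 ± 0.11 in CLP and 10.11 ± 0.26 in sham mice, a difference of 0.96 ± 0.13 (adjusted p = 0.0163). Both separated the groups without overlap. Neither passed without sham replicate 3 (adjusted p = 0.0551 for Klf9 and 0.0729 for Dusp1), and Dusp1 did not without CLP replicate 5 (adjusted p = 0.0534). Tnfaip3, an inhibitor of NF-kB signalling, gave 1.00 ± 0.20 (adjusted p = 0.0518), and Tle3, a corepressor, -0.38 ± 0.10 (adjusted p = 0.129). Blocked by class, 5 of the list rose, Klf9, Dusp1, Tnfaip3, Cebpb and Bcl2l11, where 0.648% of all tested probe sets rose. Several of these are also induced by inflammatory signals.

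Among the tested partners of the receptor only Hsph1 passed the limma threshold. Of 13 tested chaperones and co-chaperones 10 had a lower mean (median -0.13), where 51.3% of all tested probe sets had a higher mean. Hsph1, an Hsp110 exchange factor, fell by 0.95 ± 0.18 (SE, limma adjusted p = 0.0456; not passed without any 1 array other than CLP replicate 1, adjusted p = 0.0646 to 0.138), at 10.49 ± 0.41 in CLP and 11.44 ± 0.20 in sham mice (SD, n = 5 each). Dnaja1, an Hsp40 that hands clients to Hsp70, gave -0.47 ± 0.14 (adjusted p = 0.168, and 0.0292 blocked by class), Dnajb1 -0.28 ± 0.11 and Hspa8 -0.14 ± 0.10. Of 11 tested coactivators and corepressors 0 passed by limma and 1 reached an unadjusted p under 0.05, Nrip1, a corepressor, at 0.45 ± 0.13 (adjusted p = 0.145). The other 3 with the lowest p, Ncoa2, Ep300 and Crebbp, lay at 0.16, -0.13 and -0.10.

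Of 8 tested genes of steroid supply and related receptors 0 passed by limma and 0 reached an unadjusted p under 0.05. The drug and steroid exporters Abcb1b and Abcb1a gave 0.33 ± 0.15 and 0.21 ± 0.12, Star 0.10 ± 0.09 and Akr1c18 0.08 ± 0.09 (SE). H6pd, which supplies NADPH to the Hsd11b1 enzyme, lay at 0.04 ± 0.20 (adjusted p = 0.981), and the mineralocorticoid receptor Nr3c2, which also binds corticosterone, at 0.06 ± 0.13 (adjusted p = 0.952), both outside the rule for named genes. Hsd11b2, which inactivates the hormone, was too dim to test.

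Of 11 tested metal response genes outside the 10, Slc30a1 fell, and no other passed. Slc30a1 (ZnT1) is the zinc exporter that the metal-sensing factor MTF-1 induces together with the metallothioneins. It read 9.48 ± 0.20 in CLP and 10.11 ± 0.17 in sham mice (SD, n = 5 each), a difference of -0.63 ± 0.12 (SE, limma adjusted p = 0.0427), opposite in direction to the Mt1 and Mt2 averages. This call too held without CLP replicate 1 and was lost without any other single array (adjusted p = 0.0512 to 0.139). The zinc importer Slc39a10 gave -0.30 ± 0.16, Gclc, an enzyme of glutathione synthesis, 0.24 ± 0.13, and Mt3, another metallothionein, 0.13 ± 0.13. Of 14 tested genes that glucocorticoids lower in T cells, Tbx21 (T-bet), the T helper 1 factor, fell by 0.93 ± 0.17 (adjusted p = 0.0358), a call that held without CLP replicate 1 or 4 and was lost without any other single array (adjusted p = 0.051 to 0.117). In the same list Gata3 gave -0.46 ± 0.13 (adjusted p = 0.147, and 0.043 blocked by class), Il2 0.52 ± 0.20 (adjusted p = 0.331) and Il1b 0.18 ± 0.13, and the list median was 0.01. T-bet is also made by NK cells, and in the NK and NKT list Klrd1 lay at -0.54 ± 0.17, Eomes at -0.40 ± 0.15, Nkg7 at -0.24 ± 0.08 and Gzma at 0.34 ± 0.22 (SE). Their part in the Tbx21 values was not tested.

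**Figure D4:**
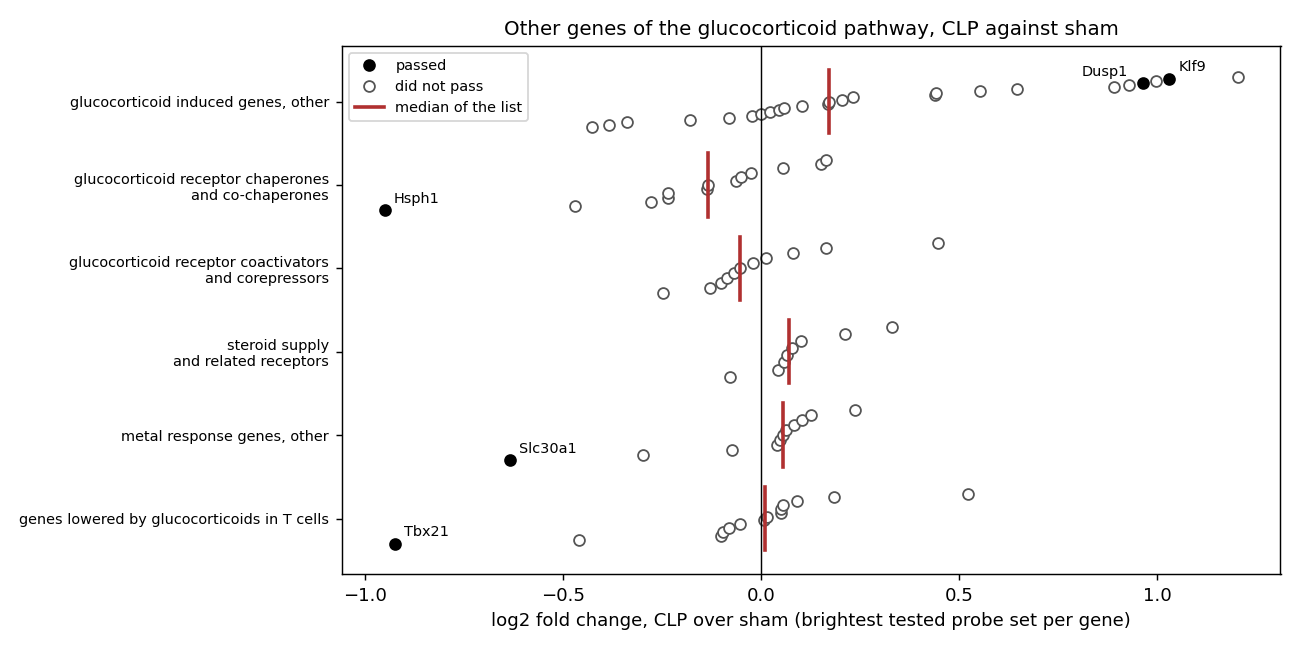
Log2 fold change of CLP over sham (x axis) for the tested genes of 6 pathway lists (y axis), 1 point per gene by its brightest probe set, filled where the adjusted p was under 0.05, with the list median as a red line. Klf9 and Dusp1 are filled on the right at 1.03 and 0.96, and Hsph1, Slc30a1 and Tbx21 on the left at -0.95, -0.63 and -0.93.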

How the data were processed

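CD4+ spleen cell RNA was hybridised to 10 Affymetrix mouse arrays, 1 per mouse, 5 CLP and 5 sham. Per the labels' protocols, total RNA was column-purified and biotinylated cRNA made by amplification in 2 rounds. The authors deposited 1 linear intensity for each probe set, with software, background correction and scaling not given in the sources used here. Sham replicate numbers come from the title suffix.

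All arrays were scaled to 1 median (their medians differed by 11.6%), values under the 25th percentile (70.4) were raised to it, and log2 was taken. The 64 control probe sets and those under the 40th percentile of mean log2 were left out, leaving 27022. Limma 3.58.1 (R 4.3.3) compared CLP with sham. Depth is not defined for arrays, and their number limits the precision. Genes were named from the platform annotation (34945 probe sets with 1 symbol, 932 with several, 9160 unnamed here); lookup by Entrez identifier in RefSeq changed 0 symbols. The fit was tested on simulated data. The members, the lists, the 18S class (limit 1000) and the tests were chosen with earlier results of these data known. Named genes were all member probe sets, the 4 genes of lowest p per list, the 5 most like Fkbp5 and Nr3c1, and cell markers; Cebpb, Bcl2l11, H6pd, Nr3c2 and Hsd11b2 were named after their values were seen. Promoters are RefSeq's, GRCm38.p6. Alternatives were other scalings, floors, filters, a variance model with trend, blocks, each class alone and leaving out each array. Figures used matplotlib 3.10.9.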

Additional observations from a re-analysis of the deposited data

Results flagged for a closer look

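Among the 50 sets of 5 values, 1 per member probe set and group, 6 held a value whose gap to its nearest neighbour exceeded 0.71 of the group's range (Dixon's limit for 5 samples), where chance alone marks about 1 group in 20. For Fkbp5 1416125_at sham replicate 5 read 10.69, with the next sham mouse at 9.89. The same mouse was low for Nr3c1 1421867_at, at 9.39 against 9.68 for the next. For Tsc22d3 1444365_at CLP replicate 1 read 8.44 with the next CLP mouse at 8.12, and for Zbtb16 1427638_at sham replicate 4 read 7.98 with the next sham mouse at 7.35. The other 2 were of the untested Nr3c1 1453860_s_at, where CLP replicate 1 and sham replicate 5 read 6.21 and the rest of each group lay at the floor. The floor alone set those 2 flags. Fkbp5 1447736_at, at the floor on every array, could not be flagged in either group. The count of 6 among 50 can therefore not be set against the rate of 1 in 20.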

How the results depend on the processing

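Over 21 other settings, the counts of probe sets that rose and fell, 45 and 145 by limma, became 175 and 543 blocked by 18S class, 90 and 158 with a replicate block, 0 and 3 with no filter on dim probe sets (1445 higher and 2231 lower at an unadjusted p under 0.05), and 0 and 0 in the high class alone (875 and 2766) and in the low class alone (825 and 1113), fits with 6 and 4 arrays. Leaving out 1 array gave 0 to 123 that rose and 4 to 384 that fell. With CLP replicates 1 to 5 left out in turn, 123, 9, 10, 74 and 4 rose and 384, 17, 15, 184 and 9 fell. With sham replicates 1 to 5 left out in turn, 8, 6, 0, 6 and 29 rose and 26, 18, 4, 11 and 30 fell (746 higher and 1543 lower at an unadjusted p under 0.05 for sham replicate 3). Member probe sets that rose were 0 in the limma fit, 2 blocked by class or with quantile normalization, 1 with values as deposited or a replicate block, and 0 to 2 without 1 array. Those that fell were 1, and 0 with no filter or in either class alone, and 0 to 1 without 1 array. Same-numbered mice of the 2 groups correlated at 0.06 to 0.58 in their deviations and 3 of 10 arrays correlated best with their own number, so the numbers were not taken to pair mice. This check cannot settle the question. The low 18S class was replicates 2 and 4 in both groups, and arrays of the same class share deviations whatever their number. Directions turned for small values: Tsc22d3 1444365_at to -0.021 in the low class, Sgk1 to 0.022 with quantile normalization and 0.065 in the low class, Ddit4 to -0.125 in the high class, Zbtb16 1439163_at to 0.016 with quantile normalization, 0.0091 unscaled and 0.045 in the high class, and Zbtb16 1427638_at to 0.089 in the high class. Without 1 array, Fkbp4 1416362_a_at ran from -0.059 to 0.19, Sgk1 from -0.055 to 0.025, Ddit4 from -0.18 to 0.42, Zbtb16 1439163_at from -0.10 to 0.078 and Zbtb16 1427638_at from -0.11 to 0.11. Hsd11b1 kept its direction in all 21, from -1.09 to -0.92, and passed in 16. Of the other named pathway genes, Klf9 passed in 17 of 21 settings, Dusp1 in 16, Tbx21 in 10, Hsph1 in 9 and Slc30a1 in 8, and none of the 24 changed direction in any setting that tested it. Of the tested values 0.132% lay at the floor.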
